A study of Mus musculus with 12 samples.

Results

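The genes described here are 10 protease inhibitor genes: the serpins Serpinb1a and Serpinb2, the Stefin A genes Stfa1, Stfa2, Stfa3 and Stfa2l1, the stefin Cstb, the secreted cystatin Cst3, the WAP domain inhibitor Slpi and the Kunitz inhibitor precursor gene Ambp. They were taken by symbol from 55335 genes listed for each library, and their normalized levels in the 3 groups of neutrophils were known when they were chosen, so their differences are given as descriptions, with no p-value. RNA was sequenced from neutrophils sorted as CD45+ CD11b+ Ly6G+ F4/80- cells. The PyMT TAN group held tumor-associated neutrophils (TANs) from mammary tumors of PyMT mice, the PyMT-Cxcr2-/- TAN group held the same cells from PyMT mice with a germline deletion of Cxcr2, and the WT BM neutrophil group held neutrophils of the bone marrow of wild-type mice. All mice were FVB, 10 weeks old and kept in SOPF housing, with 4 mice and 1 library per mouse in each group. The PyMT transgene is driven in the mammary gland, so TANs and marrow neutrophils differed in tissue, tumor and transgene together and these cannot be told apart. Marrow of PyMT or Cxcr2-/- mice was not analysed here.

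Protease inhibitors bind proteases and block the cleavage of their substrates. Clade B serpins act mostly inside cells, where Serpinb1a inhibits the serine proteases of neutrophil granules, whereas stefins and cystatins inhibit the lysosomal cysteine cathepsins, inside and outside the cell respectively. Slpi is secreted at mucosal surfaces and by neutrophils and inhibits elastase and cathepsin G. Ambp encodes a precursor that is cut into a microglobulin and the inhibitor bikunin and is known as a liver gene.

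The Stefin A genes lie in a cluster of 10 such genes on mouse chromosome 16 (build mm10/GRCm38), with Csta1, Gm5483, Gm5416, 2010005H15Rik, BC117090 and BC100530 beside the 4 described here. Stfa2 is at chr16:36403992-36408457 on the minus strand, Stfa2l1 at chr16:36156811-36161953 on the plus strand, Stfa3 at chr16:36450537-36455392 on the minus strand and Stfa1 at chr16:36276951-36285373 on the plus strand. A stretch of 90 coding bases that spans exons 1 and 2 of each gene is shown. It is the first from coding base 61 of Stfa2 that aligns without gaps in the 4 genes. It holds only some of the differences by which a read can be given to 1 copy. Capitals mark bases that differ from Stfa2, and the letters are those of GENCODE M21 transcripts of the reference strain, not of FVB.
Stfa2: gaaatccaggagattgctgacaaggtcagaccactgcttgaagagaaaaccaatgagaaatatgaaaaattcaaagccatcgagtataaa
Stfa2l1: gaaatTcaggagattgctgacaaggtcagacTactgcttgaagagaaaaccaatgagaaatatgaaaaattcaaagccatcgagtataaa
Stfa3: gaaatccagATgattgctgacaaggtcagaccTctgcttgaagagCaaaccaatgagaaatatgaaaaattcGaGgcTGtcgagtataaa
Stfa1: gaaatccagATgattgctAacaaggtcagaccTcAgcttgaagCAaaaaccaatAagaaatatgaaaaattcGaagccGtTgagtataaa

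In Stfa2 the stretch covers chr16:36408250-36408273 and chr16:36405166-36405231, and in Stfa2l1 chr16:36156897-36156920 and chr16:36159946-36160011. In Stfa3 it covers chr16:36455281-36455304 and chr16:36452187-36452252, and in Stfa1 chr16:36277238-36277261 and chr16:36280466-36280531. Within it Stfa2l1 differed from Stfa2 at 2 bases, Stfa3 at 8 and Stfa1 at 11. Over the whole coding sequence Stfa2 and Stfa2l1, of 312 bases each, were 96.5% identical. Stfa1, of 294 bases, was 97.96% identical to BC100530, whereas the nearest copy of Stfa3 was Stfa2l1 at 81.7%.

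Reads of the study were 150 bases long and were kept after trimming at 120 bases or more. No 150-base window of the transcripts of Stfa1, Stfa2, Stfa3 or Stfa2l1 occurred in a transcript of another gene, and at 120 bases only Stfa1 had shared windows, 9 of 498. Near matches were more frequent. Of the 150-base windows of Stfa1, 214 of 468 lay within 3 mismatches of another Stefin A transcript, most often BC100530, and 58 lay within 1. The same held within 3 mismatches for 46 of 322 windows of Stfa2 and 46 of 270 of Stfa2l1, while the nearest match of any Stfa3 window had 16 mismatches. The levels of Stfa1 are therefore uncertain, those of Stfa2 and Stfa2l1 less so, and those of Stfa3 rest on windows with no near copy in the cluster. How the counting treated a read that fits several copies is not given in the sources used here, and 6.07% to 11.4% of alignments in a library were set aside as not unique.

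**Figure D1:**
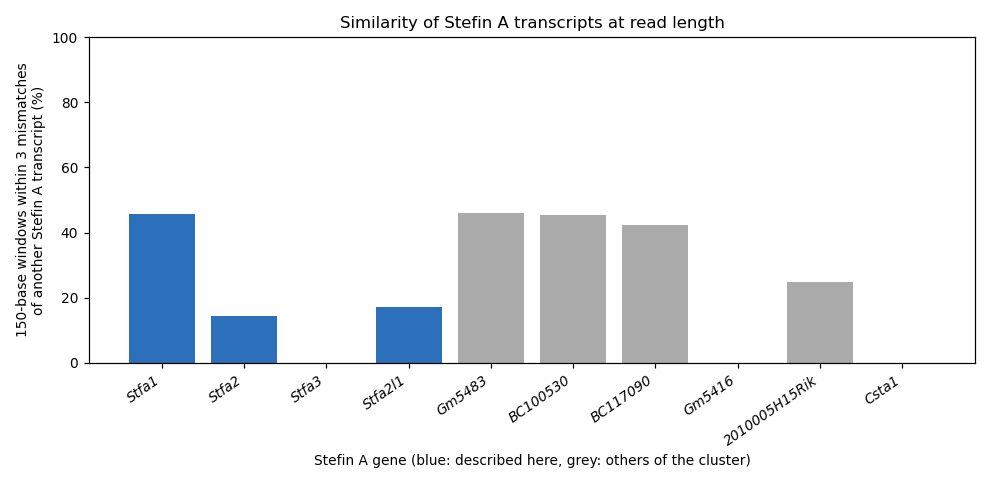
Percent of 150-base windows of each Stefin A transcript (y axis) that lie within 3 mismatches of the transcript of another Stefin A gene, for the 10 genes of the cluster (x axis). Stfa1 reached 45.7%, Stfa2 14.3% and Stfa2l1 17.0%, and Stfa3 was at 0.

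The bases before the start site are shown for 3 Stefin A genes whose start is at the same base in RefSeq and GENCODE. Capitals mark GAGGAGGAG and TTTAAAA, both on the gene's strand. The sequences are those of RefSeq (GRCm38.p6) at chr16:36156721-36156810 (plus strand) for Stfa2l1, chr16:36455393-36455482 (minus strand) for Stfa3 and chr16:36184122-36184211 (plus strand) for Gm5483.
Stfa2l1: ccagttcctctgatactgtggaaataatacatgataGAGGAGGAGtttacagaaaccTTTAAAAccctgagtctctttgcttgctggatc
Stfa3: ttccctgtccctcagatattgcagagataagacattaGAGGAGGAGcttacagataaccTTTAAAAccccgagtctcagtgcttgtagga
Gm5483: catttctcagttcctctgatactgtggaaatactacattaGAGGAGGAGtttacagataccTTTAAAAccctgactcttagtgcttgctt

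Of 9 Stefin A promoters in the RefSeq table, 7 held TTTAAAA and 6 held GAGGAGGAG, against 5.76% and 1.85% of all 32851 promoters of the same length. Both words were picked after these sequences had been read, and the promoters are copies of each other, with 89.4% identity over 250 bases between Stfa2 and Stfa2l1. The C/EBP word TTGCNNAA, searched on both strands, was in 3 of the 9 and in 10.8% of all promoters. Searched the same way, the AP-1 word TGANTCA was in 1 of the 9 and in 7.81% of all. The PU.1 word GAGGAAGT was in 0 of the 9 and in 3.2% of all.

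Library totals on genes ran from 25032704 to 51351569 counts, and 3 counts corresponded to between 0.0584 and 0.12 CPM. CPM are counts scaled to a common library size in the usual unit, after TMM scaling over the 12 libraries. Cxcr2 itself was at 1029.5 to 1536 CPM in PyMT TANs, at 8.97 to 10.1 CPM in PyMT-Cxcr2-/- TANs and at 1818 to 2249.9 CPM in marrow. All 10 neutrophil markers had counts in each group, but their levels differed. Ly6g, the antigen of the sort, was at 48.4 CPM or less in PyMT TANs, at 106 to 183 CPM in PyMT-Cxcr2-/- TANs and at 477 to 655 CPM in marrow, and the summed CPM of the 10 was 9689 to 15872, 20720 to 36413 and 104180 to 145860. The summed CPM of 11 macrophage markers ran from 2242 to 5252 in PyMT TANs, from 2464 to 5102 with Cxcr2 deleted and from 255 to 358 in marrow, and that of 8 mammary epithelial markers was 40.6 to 416, 65.8 to 298 and 0.0599 to 0.229. In marrow 10 of the 11 macrophage markers and 4 of the 8 epithelial markers had a count, and the epithelial keratin gene Krt8 was at 0. The summed neutrophil markers thus differed between the 3 groups, and those of macrophages and epithelium between TANs and marrow. Csf3r, 1 of the 10 neutrophil markers, overlapped between groups, at 2938 to 4777, 4107 to 5449 and 3790 to 4318.5 CPM. The summed CPM of 6 eosinophil and basophil markers was 103 to 184, 50.7 to 68.7 and 19.9 to 24.7, without overlap. Most of that sum was the lectin gene Siglecf, at 97.2 to 175, 46.4 to 64.3 and 14.8 to 18.7 CPM. Only 2 of the 6 had a mean of 1 CPM or more in each group, so the sum mainly gives the level of 1 gene. That of 4 lymphocyte markers was 0.883 to 12.8, 2.17 to 7.33 and 8.68 to 13.6. The part of these markers in the differences was not tested. In these bulk libraries, fewer cells of a type and less RNA per cell cannot be told apart.

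Per length of exon sequence (RPKM), the leading genes differed between groups. In marrow Stfa2l1 was first at 517 ± 72.0 RPKM (SD, n = 4), followed by Slpi at 398 ± 39.9 RPKM, and the ranges of these neighbours overlapped. Cst3 at 263 ± 26.8 RPKM and Serpinb1a at 179 ± 17.5 RPKM came next, each without overlap with the gene above it. In PyMT TANs Cst3 was first at 379 ± 82.1 RPKM, with overlap with Stfa2l1 at 288 ± 131.6 RPKM, and Serpinb1a came eighth at 6.68 ± 0.873 RPKM. In PyMT-Cxcr2-/- TANs Stfa2l1 at 394 ± 100.3 RPKM, Cst3 at 333 ± 55.4 RPKM and Stfa2 at 297 ± 117.9 RPKM led, and neighbours in this order overlapped. Stfa1 and Serpinb2 were ninth and last in both TAN groups.

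**Figure D2:**
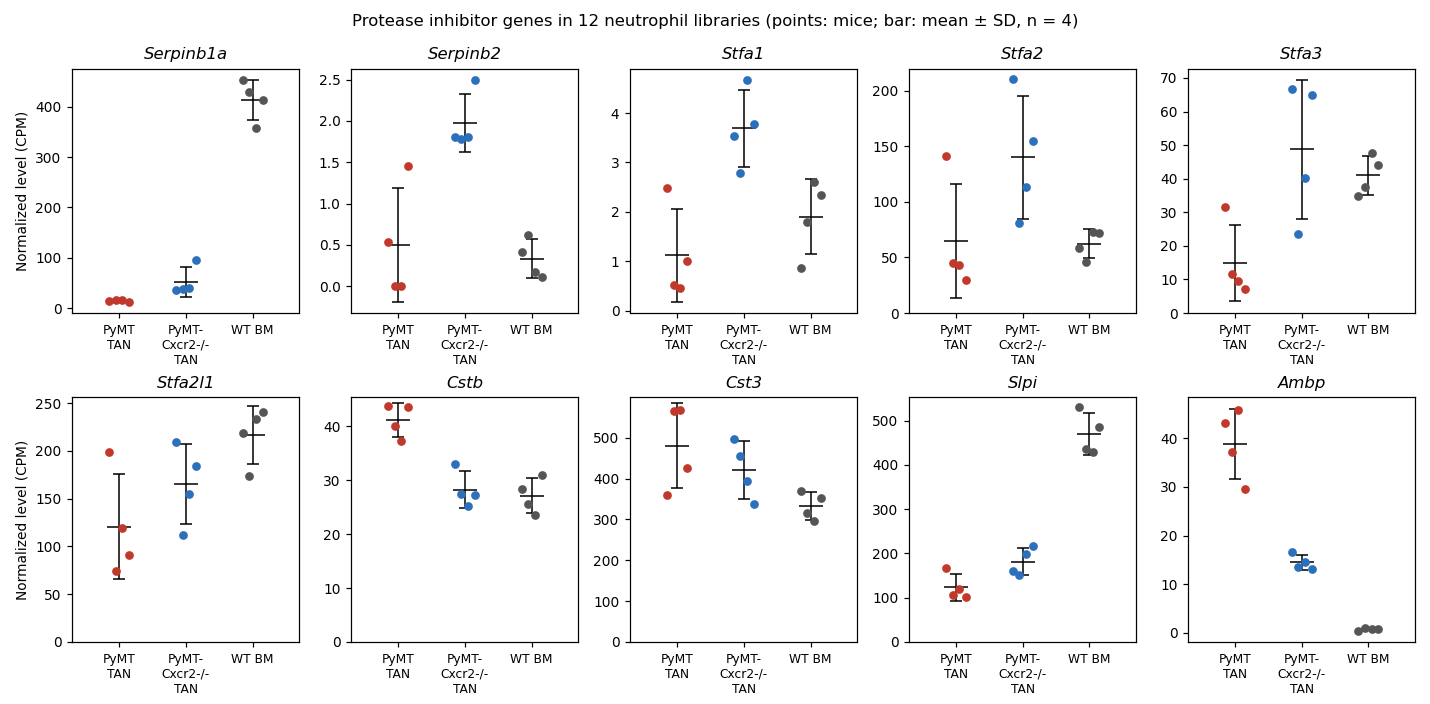
Normalized level in CPM (y axis, 1 linear scale per gene) of the 10 protease inhibitor genes in each mouse of the 3 groups (x axis), with the mean and SD of 4 mice. Serpinb1a and Slpi were highest in marrow, Ambp was highest in PyMT TANs, and 1 PyMT TAN library lay above the other 3 for Stfa2 and Stfa3.

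All 10 genes passed the filter on low counts in the 3 comparisons. In PyMT-Cxcr2-/- against PyMT TANs, 3 of them lay above and 2 below without overlap between the groups, where 11.9% of the 18463 genes tested did not overlap (6.89% above, 5.05% below). As a description only, 1 of the 10 was past the thresholds of an adjusted p under 0.05 and a fold of 1.5 in the higher direction and 1 in the lower, against 1.98% of all genes (1.38% higher, 0.596% lower). The median log2 fold change of the 10 was 0.80, against -0.07 over all genes. For PyMT TANs against marrow, 2 lay above and 3 below without overlap, against 58.2% of 17153 genes (28.4% above, 29.7% below). There 3 were past the thresholds higher and 4 lower, against 53.3% of genes (30.1% higher, 23.2% lower). For PyMT-Cxcr2-/- TANs against the same marrow libraries, 4 lay above and 2 below without overlap, against 65.8% of 17732 genes (32.5% above, 33.3% below). Past the thresholds, 4 were higher and 2 lower, against 59.5% (34.4% higher, 25.1% lower). The genes had been chosen on these levels, so nothing is read from these counts.

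Serpinb1a (chr13:32842092-32851185, minus strand) had a wider range in CPM than Serpinb2. In marrow it was at 454, 428, 358 and 412 CPM, in PyMT TANs at 15.3, 17.0, 16.7 and 12.6 CPM and in PyMT-Cxcr2-/- TANs at 36.1, 37.6, 39.4 and 96.7 CPM. The 3 groups did not overlap, with marrow highest and PyMT TANs lowest. Its log2 fold change was -4.67 (SE 0.15) for PyMT TANs and -2.86 (SE 0.30) for PyMT-Cxcr2-/- TANs against marrow, and 1.73 (SE 0.31) for PyMT-Cxcr2-/- against PyMT TANs. Replicate 4 of the PyMT-Cxcr2-/- TANs stood above the other 3, and without it the last value was 1.28. The neutrophil granule genes Ngp, Camp and Ltf followed the same order of groups without overlap, with Ngp at 161 to 277 CPM in PyMT TANs, 891 to 2965 CPM in PyMT-Cxcr2-/- TANs and 13115 to 20423 CPM in marrow. In replicate 4 of the PyMT-Cxcr2-/- TANs the granule genes Ngp and Camp were also highest of the group, at 2965 and 516 CPM against 891 to 1124 and 145 to 167 CPM in the other 3, and their part in the Serpinb1a level was not tested.

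Serpinb2 (chr1:107511423-107535478, plus strand), which inhibits plasminogen activators, was near the limit of detection. Its levels were 0.531, 0, 0 and 1.46 CPM in PyMT TANs, at 1.80, 1.78, 1.81 and 2.50 CPM in PyMT-Cxcr2-/- TANs and at 0.419, 0.622, 0.171 and 0.112 CPM in marrow. All 4 PyMT-Cxcr2-/- TANs lay above the other groups, while PyMT TANs and marrow overlapped. Between the TAN groups its log2 fold change was 1.93 with an SE of 1.12 (PyMT-Cxcr2-/- over PyMT), and it was 3.38 without replicate 4 of the PyMT TANs. Some annotated exons of Serpinb2, outside the transcript used for the window search, overlap exons of Serpinb10 on the same strand, and how reads there were counted is not given, so low counts of Serpinb2 are uncertain.

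Stfa2, an intracellular inhibitor of cysteine cathepsins, was at 141, 45.1, 42.9 and 30.0 CPM in PyMT TANs, at 210.0, 81.4, 114 and 155 CPM in PyMT-Cxcr2-/- TANs and at 58.8, 45.9, 73.2 and 72.1 CPM in marrow. The PyMT-Cxcr2-/- TANs lay above marrow without overlap and overlapped with PyMT TANs through replicate 1 of the latter. The log2 fold change of PyMT-Cxcr2-/- against PyMT TANs was 1.09 (SE 0.47), and without that replicate it was 1.83. For PyMT TANs against marrow the value was 0.11 (SE 0.40), and it turned to -0.60 without the same library.

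Stfa3 was at 31.7, 11.5, 9.51 and 7.17 CPM in PyMT TANs, at 66.6, 23.5, 40.1 and 64.9 CPM in PyMT-Cxcr2-/- TANs and at 34.8, 37.5, 47.5 and 44.1 CPM in marrow. PyMT TANs lay below marrow in every library, and the PyMT-Cxcr2-/- TANs overlapped with both groups. Between the TAN groups Stfa3 had a log2 fold change of 1.68 (SE 0.47), or 2.37 without replicate 1 of the PyMT TANs, and -1.39 (SE 0.38) for PyMT TANs against marrow, or -2.05 without it. With the correction for GC content and gene length, PyMT TANs against marrow gave 0.75 for Stfa2 and -0.72 for Stfa3.

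Stfa2l1, the near copy of Stfa2, had smaller fold changes than Stfa3 between the TAN groups and between PyMT TANs and marrow. Its levels were 198, 73.8, 120 and 91.1 CPM in PyMT TANs, at 209, 112, 155 and 184 CPM in PyMT-Cxcr2-/- TANs and at 219, 173, 233 and 241 CPM in marrow. Each pair of groups overlapped. Between the TAN groups its log2 fold change was 0.42 (SE 0.28), and that of PyMT TANs against marrow was -0.77 (SE 0.26). With a correction for GC content and gene length the latter was 0.0051, so its direction depends on that choice.

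Stfa1 stayed under 5 CPM in all libraries. It was at 2.49, 0.527, 0.465 and 1.01 CPM in PyMT TANs, at 3.53, 2.79, 4.67 and 3.77 CPM in PyMT-Cxcr2-/- TANs and at 0.869, 1.81, 2.60 and 2.35 CPM in marrow. All 4 PyMT-Cxcr2-/- TANs lay above the other 8 libraries, with a log2 fold change of 1.68 (SE 0.53) against PyMT TANs and 2.47 without replicate 1 of the PyMT TANs. BC100530, from which near matches could be drawn, was at 46.98 to 136 CPM in the TANs of PyMT mice and at 104 to 219 CPM when Cxcr2 was deleted.

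The levels of 6 of the Stefin A genes varied together from mouse to mouse inside the groups. After the group means were removed, log2 CPM of Stfa2, Stfa3, Stfa2l1, Gm5483, BC100530 and BC117090 had Pearson correlations of 0.84 to 0.96 over the 12 libraries in 15 pairs. The 6 were grouped after their values were seen. The lower Stefin A genes Stfa1 and Gm5416 had correlations with them of 0.59 to 0.75 and 0.68 to 0.83. The 42 pairs of 1 of the 6 with another of the protease inhibitors described here, Stfa1 included, had correlations of -0.60 to 0.75. Among these pairs, Slpi, which is no Stefin A gene, had correlations of 0.67 to 0.74 with the 6. The points share libraries and scaling, and near copies may share reads. The RPKM of Stfa2 lay between 29.3% and 63.2% of that of Stfa2l1 in PyMT TANs. It lay between 64.8% and 89.2% with Cxcr2 deleted and between 23.5% and 27.9% in marrow. These ranges did not overlap but lay close, with the PyMT TANs at 63.2%, 54.4%, 31.9% and 29.3%. The part of shared reads in these shares was not tested.

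**Figure D3:**
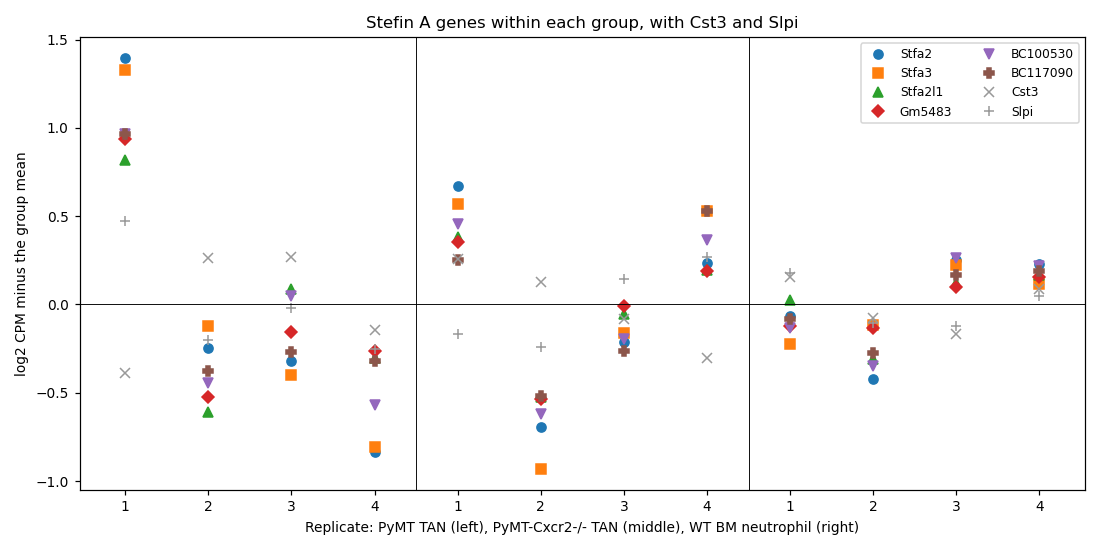
Log2 CPM minus the mean of the group (y axis) for 6 Stefin A genes and for Cst3 and Slpi in each library (x axis, 4 replicates per group). The 6 Stefin A symbols lie above 0.7 in PyMT TAN replicate 1 and below 0 in PyMT-Cxcr2-/- TAN replicate 2.

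The other Stefin A genes were tested by the quasi-likelihood test of edgeR, and p-values were adjusted over all genes by the Benjamini-Hochberg method. In PyMT TANs against marrow, BC117090 had a log2 fold change of -1.95 (adjusted p = 0.000143), Gm5483 of -1.27 (adjusted p = 0.00161) and BC100530 of -1.02 (adjusted p = 0.0112), and these 3 fell. With the GC content and length correction the adjusted p of BC100530 was 0.313. Between the TAN groups none passed the thresholds, and BC117090 differed by 1.31 on the log2 scale (SE 0.33) at an adjusted p of 0.0687, which was 0.0134 without replicate 1 of the PyMT TANs. In PyMT-Cxcr2-/- TANs against marrow, Gm5483 fell, with a log2 fold change of -0.59 (adjusted p = 0.00477) at the edge of the fold threshold, which it missed under several alternatives. Gm5416 rose there by a log2 fold change of 0.83 (adjusted p = 0.0191), from 2.79 to 5.62 CPM in marrow to 4.41 to 9.45 CPM, and with 12 libraries in one fit its adjusted p was 0.102 and without PyMT-Cxcr2-/- TAN replicate 1 it was 0.0853. Its adjusted p was also 0.0645, 0.0559 and 0.0506 without replicates 1, 2 and 3 of marrow. In PyMT TANs against marrow Gm5416 had a like log2 fold change of 0.85 (SE 0.35, adjusted p = 0.0584). With the GC content and length correction that value was 1.68 (adjusted p = 0.00164). Between the TAN groups Gm5416 had a log2 fold change of -0.10 (SE 0.35). The genes 2010005H15Rik and Csta1 had at most 11 counts in a library. Summed as 1 feature, the 10 Stefin A genes were at 276 to 765 CPM in PyMT TANs, at 480.2 to 997 CPM in PyMT-Cxcr2-/- TANs and at 719.9 to 964 CPM in marrow. The log2 fold change of the sum was 0.83 (SE 0.33) between the TAN groups, -0.95 (SE 0.28) for PyMT TANs against marrow and -0.07 (SE 0.19) for PyMT-Cxcr2-/- TANs against marrow.

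Cstb (chr10:78425669-78427622, plus strand), the widely expressed stefin of the cytosol, was at 43.8, 40.1, 37.2 and 43.6 CPM in PyMT TANs, at 33.1, 27.5, 25.2 and 27.3 CPM in PyMT-Cxcr2-/- TANs and at 28.5, 25.6, 23.6 and 31.0 CPM in marrow. PyMT TANs were highest without overlap, and the other groups overlapped. Its log2 fold change was -0.58 (SE 0.14) between the TAN groups and 0.68 (SE 0.13) for PyMT TANs against marrow. Both directions were opposite to those of Stfa3. With the GC content and gene length correction, the values of Cstb were -0.87 and 1.21.

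Cst3 (chr2:148871722-148875692, minus strand) encodes the secreted inhibitor cystatin C. It was at 360.3, 566, 568 and 426 CPM in PyMT TANs, at 498, 456, 393 and 338 CPM in PyMT-Cxcr2-/- TANs and at 369, 315, 296 and 353 CPM in marrow. All pairs of groups overlapped. The log2 fold change against marrow was 0.61 (SE 0.17) in PyMT TANs and 0.46 (SE 0.13) in PyMT-Cxcr2-/- TANs. Between the TAN groups it was -0.23 (SE 0.19). With the GC content and gene length correction, Cst3 had -0.54 between the TAN groups and 0.24 in PyMT-Cxcr2-/- TANs against marrow. By replicate, the summed macrophage markers were at 2242, 4923, 5252 and 3665 CPM in PyMT TANs. They were at 4397, 5102, 2895 and 2464 CPM in PyMT-Cxcr2-/- TANs and at 358, 295, 277 and 255 CPM in marrow. The part of these markers in the Cst3 levels was not tested.

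Slpi (chr2:164354070-164389095, minus strand) was at 168, 106, 120 and 102 CPM in PyMT TANs, at 159, 152, 198 and 216 CPM in PyMT-Cxcr2-/- TANs and at 530.3, 435, 429.9 and 484 CPM in marrow. Marrow was highest without overlap and the TAN groups overlapped. Against marrow the log2 fold change was -1.85 (SE 0.16) in PyMT TANs and -1.26 (SE 0.13) in PyMT-Cxcr2-/- TANs, and between the TAN groups it was 0.52 (SE 0.18).

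Ambp (chr4:63143275-63154799, minus strand) was at 43.1, 37.3, 45.7 and 29.5 CPM in PyMT TANs, at 16.6, 13.6, 14.6 and 13.2 CPM in PyMT-Cxcr2-/- TANs and at 0.419, 1.06, 0.743 and 0.866 CPM in marrow. The 3 groups did not overlap, in the reverse order of Serpinb1a. The log2 fold change was 5.73 (SE 0.29) and 4.35 (SE 0.25) for the TAN groups against marrow and -1.46 (SE 0.17) for PyMT-Cxcr2-/- against PyMT TANs. The liver gene Alb was at 0 in every marrow library and at most 4.19 CPM in the PyMT group and 0.125 CPM in the PyMT-Cxcr2-/- group. Siglecf, a lectin found on eosinophils and some TANs, was at 97.2 to 175, 46.4 to 64.3 and 14.8 to 18.7 CPM in PyMT TANs, PyMT-Cxcr2-/- TANs and marrow, and its part in the Ambp difference was not tested.

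**Figure D4:**
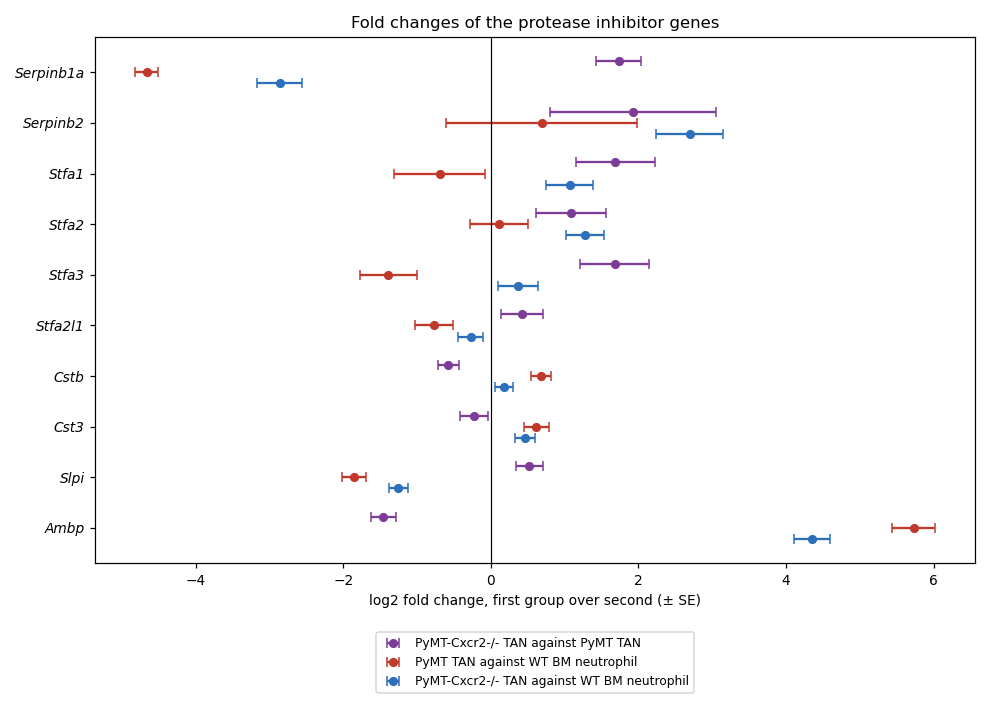
Log2 fold change with its SE (x axis) of the 10 protease inhibitor genes (y axis) in the 3 comparisons, positive where the group named first was higher. Ambp had the highest values against marrow, 5.73 and 4.35, and Serpinb1a the lowest, -4.67 and -2.86.

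The rest of the protease inhibitor families was listed by gene name, as 134 further genes, most of them too low to test. Between the TAN groups 43 were tested with edgeR and 0 passed the thresholds, where 1.98% of all 18463 genes tested passed. At so low a share nothing is read from the 0. Of the 43, 7 had an unadjusted p under 0.05, and 6 of these were higher in PyMT-Cxcr2-/- TANs. DESeq2 called 4, which were BC100530, BC117090, Reck and Wfdc21, all higher, among 1035 genes that it called in all. In PyMT TANs against marrow 15 of 32 rose and 11 fell, where 30.1% of all genes tested rose and 23.2% fell. In PyMT-Cxcr2-/- TANs against marrow 20 of 35 rose and 9 fell, against 34.4% and 25.1% of all genes. The median log2 fold changes of these lists were 1.003 and 1.16, against 0.09 over all genes in both. By family in PyMT TANs against marrow, 8 of 11 secreted and other serpins rose and 2 fell, 2 of 4 clade B serpins rose and 1 fell, 2 of 3 WAP domain inhibitors rose and 1 fell, and 2 of 4 Kunitz and Kazal inhibitors rose and 1 fell. Of the stefins 0 of 4 rose and 3 fell, of the inter-alpha-trypsin inhibitor heavy chains 0 of 2 rose and 1 fell, and of the TIMPs, inhibitors of metalloproteases, 1 of 2 rose and 1 fell. Differences between these families were not tested.

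Serpinb8, a clade B serpin, rose in PyMT TANs against marrow by a log2 fold change of 5.38 (SE 0.50, adjusted p = 4.6e-06 by edgeR's quasi-likelihood test) and Wfdc18, a WAP domain gene, by 5.88 (SE 0.73, adjusted p = 4.2e-05). Wfdc18 is also expressed by mammary epithelium, whose markers were higher in TANs as given above. Serpinb10, whose exons overlap some of Serpinb2, fell by 5.43 on the log2 scale (adjusted p = 2.3e-07), Itih5, an inter-alpha-trypsin inhibitor heavy chain gene, had a log2 fold change of -4.71 (adjusted p = 0.000501) and Reck, a membrane inhibitor of metalloproteases, of -4.39 (adjusted p = 6e-08). The same 5 genes passed in the same directions in PyMT-Cxcr2-/- TANs against marrow, a comparison that uses the same marrow libraries.

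Of 14 proteases that these inhibitors are known to block, 12 were tested between the TAN groups with edgeR and 0 passed, against 1.98% of all genes. None of the 12 had an unadjusted p under 0.05, and 0 were called by DESeq2. At so low a share nothing is read from the 0 that passed. Against marrow, 8 of 13 rose and 4 fell in PyMT TANs (30.1% and 23.2% of all genes), and 9 of 14 rose and 4 fell in PyMT-Cxcr2-/- TANs (34.4% and 25.1%). The cysteine proteases Ctss, Lgmn and Ctsc rose in PyMT TANs by log2 fold changes of 6.27, 5.32 and 4.89 (adjusted p = 4.5e-08, 7.7e-08 and 9.9e-08 by edgeR's quasi-likelihood test). The granule serine protease gene Elane fell by 5.43 on the log2 scale (adjusted p = 0.000582), and Ctsg was at 3.33 to 5.14 CPM in marrow and had at most 4 counts in any TAN library. Plat, the tissue plasminogen activator gene, was at 0.575 to 0.935 CPM in PyMT-Cxcr2-/- TANs and had at most 2 counts in a marrow library. In PyMT TANs it was at 0.170, 0, 0 and 1.68 CPM, so the TAN groups overlapped. Ctsb, chosen after its values were seen because Cst3 and Cstb inhibit its product, was at 1094 to 1792 CPM in PyMT TANs and 156 to 203 CPM in marrow. The Cst3 to Ctsb RPKM ratio was 1.14 to 1.58 in PyMT TANs, 1.12 to 1.65 with Cxcr2 deleted and 8.54 to 10.2 in marrow. That of Cstb to Ctsb was 0.212 to 0.402, 0.142 to 0.279 and 1.41 to 1.88. By replicate, Ctss was at 357, 683, 667 and 598 CPM in PyMT TANs, where summed macrophage markers were at 2242, 4923, 5252 and 3665 CPM. In PyMT-Cxcr2-/- TANs Ctss was at 553, 626, 318 and 263 CPM, and these markers at 4397, 5102, 2895 and 2464 CPM. The part of other cells in these protease levels and ratios was not tested.

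**Figure D5:**
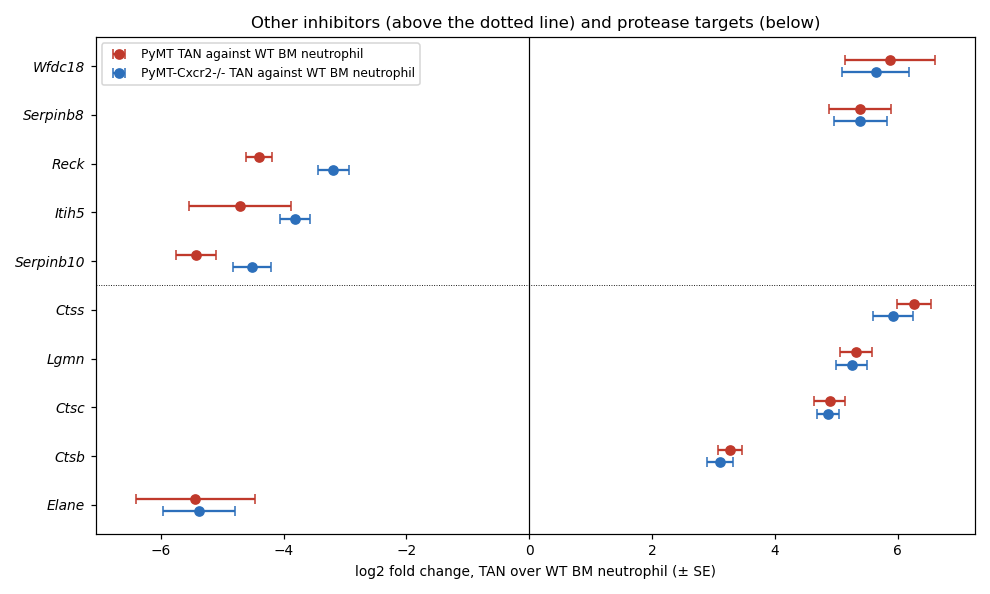
Log2 fold change with its SE (x axis) of 5 further inhibitors and 5 protease genes (y axis) in each TAN group against marrow. Wfdc18, Serpinb8 and 4 cysteine protease genes lie to the right of 0 and Reck, Itih5, Serpinb10 and Elane to the left. Ctsg, near 0 counts in both TAN groups, is left out.

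Outside these families, the genes most like each inhibitor were sought among 11080 genes by the Pearson correlation of log2 CPM over the 12 libraries, which mostly follows the differences between groups. Serpinb1a was most like Sytl1 and Itgb2l (r = 0.997 and 0.996), Slpi most like Mocs1 and Mocos (r = 0.997 and 0.996) and Ambp most like Gm14023 and Scimp (both r = 0.993). The nearest were Tarm1 for Stfa3 (r = 0.912), Prr7 for Stfa2l1 (r = 0.921), Myo1a for Stfa2 (r = 0.865), Gm9843 for Cstb (r = 0.952) and Elac2 for Cst3 (r = 0.942). Stfa1 and Serpinb2 were below the level required.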

How the data were processed

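RNA-seq was analysed for 12 libraries, 4 per group, 1 mouse each. Per the study's methods, the authors made rRNA-depleted directional libraries, sequenced paired reads of 150 bases, trimmed these and used STAR (build mm10) and HTSeq to obtain a number of reads for each gene. The deposited values are raw counts per gene. Tool versions, strand setting and annotation release are not given in the sources used here. The rows for unassigned reads stayed out of library sizes (no feature, 32.0% to 52.5% of a library). Of 55335 genes, 55154 were matched by identifier to GENCODE M21.

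Each comparison was fitted on its 2 groups with edgeR 4.0.16 (R 4.3.3): TMM, filterByExpr, robust quasi-likelihood test, adjusted p under 0.05 and a fold of 1.5. CPM used TMM factors over 12 libraries from all genes. Factors from the genes past the count filter were tried after values had been seen beside an earlier analysis and were not adopted. They change CPM by -1.60% to 2.62% and leave the overlaps between groups of the 10 members as they are. RPKM divides by summed exon length. The edgeR fits were tested on simulated data.

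The members and lists were chosen with earlier results of these data known. Named were all 10 members and the other Stefin A genes, up to 3 higher and 3 lower further inhibitors per comparison by fold among those past the thresholds without overlap and with average log2 CPM of 1 or more, up to 5 proteases per comparison, and the nearest genes by correlation. One further inhibitor that this rule takes is not reported here, though it is counted in the lists. The family patterns were corrected after the files were read, because they had taken cleavage stimulation factor genes that are no inhibitors. Replicates of a group differed by more than sampling noise. Alternatives were RLE factors, DESeq2 1.42.0, no filter, one fit over 12 libraries, estimation without the robust option, a replicate block, a GC content and length correction, a fold of 2 and each library left out.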

Additional observations from a re-analysis of the deposited data

Results flagged for a closer look

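In 45 groups of 4 libraries (15 genes), 6 had 1 library far from the other 3, and chance alone flags about 1 in 20 groups. Of these, 5 were replicate 4 of the PyMT-Cxcr2-/- TANs, which are 1 library and not independent. In it Serpinb1a was at 96.7 CPM against 36.1 to 39.4 CPM in the others, Serpinb2 at 2.50 against 1.78 to 1.81, Reck at 12.7 against 5.35 to 5.83, Serpinb10 at 6.19 against 2.25 to 2.41 and Serpinb8 at 3.48 against 8.57 to 9.03. Stfa2 was at 141 CPM in PyMT TAN replicate 1, against 30.0 to 45.1 CPM in the other 3.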

How the results depend on the processing

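Of the counts over lists and all genes, 187 alternatives stayed within 1.5 times the reported count, 6 gave more and 11 fewer. The genes called between the TAN groups (365) were 886 with 12 libraries in one fit, 1035 by DESeq2, 594 without a filter, 215 at a fold of 2, 104 with the GC content and length correction and 23 to 513 with a library left out, lowest without PyMT TAN replicate 2 and highest without PyMT TAN replicate 1. Further inhibitors called there (0) were 3 in one fit, 4 by DESeq2 and 0 to 4 with a library left out. With the GC content and length correction, Stfa2l1 in PyMT TANs against marrow turned from -0.77 to 0.0051. The cause of these changes was not tested.

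The replicate numbers came from different mice, and same-numbered deviations correlated at -0.21 to 0.09. Whether same-numbered libraries shared a batch is not given in the sources used here, and these correlations cannot decide it. With the replicate block 13 genes were called between the TAN groups, and 30 with the block and the correction together. The members above 0 in PyMT TANs against marrow were 3 instead of 5 with the block, and 4 to 5 with a library left out. Serpinb2 and Stfa2 are the members whose sign there varied over several alternatives. In PyMT-Cxcr2-/- TANs against marrow, 3 libraries correlated best with their own number.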
